A study of Mus musculus with 6 samples.

Results

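The comparison described here set lymphoid-primed multipotent progenitors (LMPP) that lack Satb1 against LMPP of wild type littermates. It rests on 2 of the series' 6 microarrays, 1 Satb1-null and 1 wild type. The cells were sorted from E18.5 fetal liver of C57BL6/J mice as lineage-negative, c-kit-high, Sca-1+ and Flt3+, and were not cultured or treated. The other 4 arrays hold stem cells (HSC, the same gate but Flt3-) and common lymphoid progenitors (CLP, lineage-negative, c-kit-low, Sca-1-low and IL7Rα+), each as 1 Satb1-null and 1 wild type array. Neither the number of embryos behind each RNA nor the structure of the null allele is stated in the labels. Of 19823 autosomal genes that could be named on the array, 12842 were compared. Each was well above background by its brightest probe on at least 1 LMPP array. Some dim genes seen on the wild type array only were not compared, for the reason given with the processing. With 1 array a side there was no replicate check and no test, so every difference below is one between 2 RNA samples.

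Satb1 is a nuclear protein that binds AT-rich DNA and organises chromatin, and it is best known for its part in the development of T lymphocytes. LMPP lie between stem cells and lymphoid progenitors: they have lost most of the potential to make platelets and red cells, and they keep lymphoid and granulocyte and macrophage potential. Fetal liver around them is a site of intense red cell production. The series asked which genes depend on Satb1 in each progenitor population.

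A level below is the log2 signal of a gene's brightest probe, centred so that the 75th percentile of each array is 0. A difference is the Satb1-null level minus the wild type level, so 1 is a doubling and -1 a halving. Genes were counted past a threshold of 2-fold. Where a gene was not well above background on the dimmer array, the difference is a lower bound of its size and is given as "at least". By the scanner software's error model, which does not cover variation between RNA samples, the median uncertainty of 1 difference was 0.20 on this scale. It hardly varied between genes with high signals (0.204 for both Fkbp3 and Rsad2), so it is a value set by the model and not a measured spread. Probes printed several times on the arrays had a median SD of 0.089 within the Satb1-null array and 0.087 within the wild type array.

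The Satb1-null LMPP array had 52.4% of its spots well above background and the wild type LMPP array 54.6%, and neither had a saturated spot. Satb1 itself read 1.96 in Satb1-null LMPP and 2.0 in wild type LMPP, a difference of -0.04. The position of its 1 probe relative to the deleted sequence is unknown here, and this value therefore checks no label. Differences were small for the sort marker genes Kit (4.38 in Satb1-null and 4.56 in wild type LMPP) and Flt3 (3.32 in Satb1-null and 3.21 in wild type LMPP). Ly6a, which encodes Sca-1, read 0.14 in Satb1-null and 1.12 in wild type LMPP, a difference of -0.98 on an array pair sorted as Sca-1+ on both sides. Sex-linked genes also differed: Xist read 4.18 in Satb1-null LMPP and was not well above background in wild type LMPP, while the Y-linked Ddx3y read -2.44 in Satb1-null and 0.44 in wild type LMPP. Genes of both sex chromosomes were left out of all counts. All wild type arrays lay in the first row of their slide and all Satb1-null arrays in the second, so genotype, slide row and sex-linked signal cannot be told apart.

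Of the 12842 genes, 742 (5.78%) were at least 2-fold higher in Satb1-null LMPP and 467 (3.64%) at least 2-fold lower. Of these, 343 of the higher and 189 of the lower ones were bounds against an array on which the gene was not well above background. In all there were 517 bounds upward and 729 downward. The lowest level used for a bound was -4.04 in wild type and -3.76 in Satb1-null LMPP, so upward bounds could pass the threshold more easily. The median difference was -0.04, and the middle 95% of the genes measured on both arrays ran from -0.99 to 1.14. The same 2-fold threshold was passed by more genes in the other populations: 8.32% of genes were higher and 5.85% lower in Satb1-null HSC, and 11.8% higher and 8.24% lower in Satb1-null CLP.

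How often a gene passed the threshold followed its brightness. Among genes whose mean level was under -2, 15.0% were past 2-fold and the SD of the differences was 0.71. Between levels of 0 and 2 the share was 2.73% and the SD 0.43, and between 2 and 4 the share was 0.636% and the SD 0.32. Of the 1340 genes at a level of 4 or more, 1 was past 2-fold: Hba-a1, an adult alpha globin gene. Among the 7072 genes with a mean level of at least 0, called bright below, 71 (1.0%) were at least 2-fold higher and 37 (0.523%) at least 2-fold lower in Satb1-null LMPP.

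**Figure D1:**
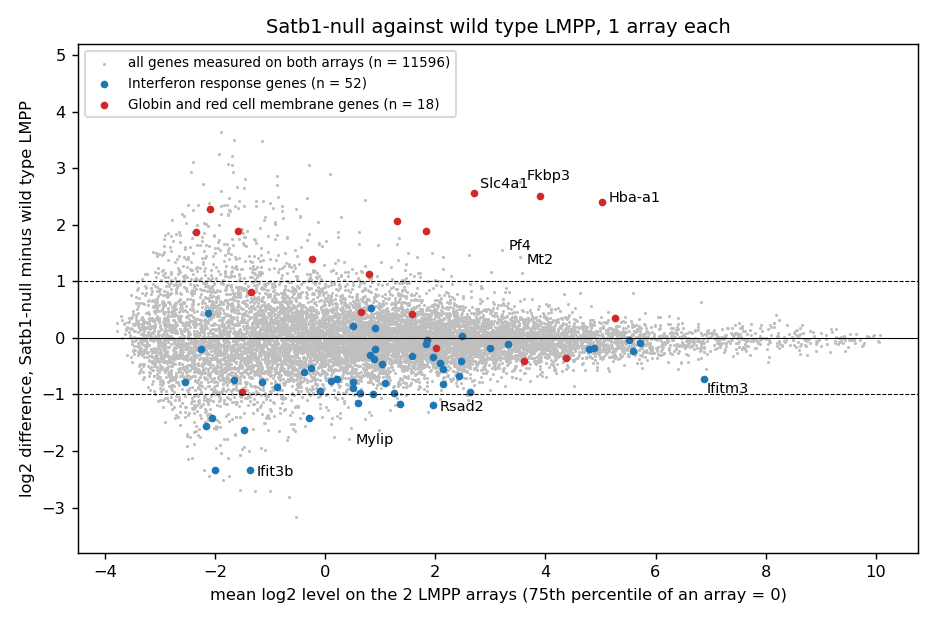
Difference between Satb1-null and wild type LMPP (vertical axis, log2) against the mean level on the 2 arrays (horizontal axis, log2, 75th percentile of an array set to 0), 1 point per gene measured on both arrays. Grey points are all 11596 such genes, blue points interferon response genes and red points globin and red cell membrane genes; dashed lines mark 2-fold. The grey cloud narrows with brightness, most blue points lie below 0, and the red points spread from -0.95 to over 2.5.

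Several probes per gene gave a second look at the same RNA. Of 3339 genes with 2 or more probes well above background, 1825 (54.7%) had all probes on the same side of 0. The brightest probe was past 2-fold for 200 of them; in 123 of these all probes had the same sign, and in 44 every probe was past 2-fold, 27 higher (0.809%) and 17 lower (0.509%). Across the 2496 genes with exactly 2 probes measured on both arrays, the 2 probes' differences correlated with r = 0.20 (Spearman 0.23). Both differences come from the same 2 arrays, genes are not replicates, and no p is given. Of the bright genes past 2-fold, 66 had 1 probe well above background and could not be checked this way, and of the 42 that could, 9 had every probe past 2-fold.

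**Figure D2:**
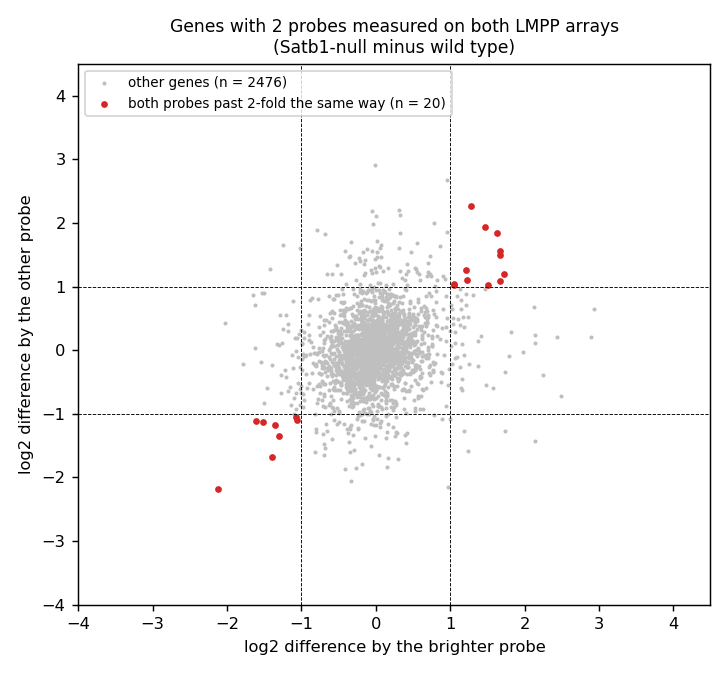
Differences between Satb1-null and wild type LMPP by the brighter probe (horizontal axis, log2) and by the other probe (vertical axis, log2) for 2496 genes with 2 probes measured on both arrays. Red points are the 20 genes whose probes were both past 2-fold in the same direction; most genes past 2-fold by 1 probe lie near 0 by the other.

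Genes of the interferon response were lower in Satb1-null LMPP. These genes are switched on when type I or type II interferon binds its receptor, and many encode proteins that block viruses. Of 53 members compared, 10 were at least 2-fold lower and 0 higher, and 48 lay below 0, as did 54.7% of all genes compared. The shares over all genes, 5.78% higher and 3.64% lower, stand beside this count and every list count in LMPP below. Their median was -0.67, against -0.04 over all genes. Restricted to the 37 bright members, 33 lay below 0 and the median was -0.40. The list's summed linear level was 378 in Satb1-null and 494 in wild type LMPP, in units of the arrays' 75th percentile. The brightest member, Ifitm3, weighs heavily in this sum (log2 levels of 6.52 in Satb1-null and 7.24 in wild type LMPP). Dim members past 2-fold weigh little in it.

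The members past 2-fold included several kinds of antiviral gene. The Ifit genes encode proteins that bind foreign RNA. Ifit3b read -2.54 in Satb1-null and -0.19 in wild type LMPP, a difference of -2.34 that its second probe gave as at least -1.55. Ifit3, its near-identical neighbour, read -3.18 in Satb1-null and -0.84 in wild type LMPP, also -2.34. Cross-hybridisation between these copies was not tested. In HSC and CLP the 2 genes went opposite ways, with values given below. Ifit1 read -2.77 in Satb1-null and -1.35 in wild type LMPP (-1.42).

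The brightest member past 2-fold was Rsad2, which encodes the antiviral enzyme viperin, at 1.36 in Satb1-null and 2.55 in wild type LMPP (-1.19). Ddx58, which encodes the RNA sensor RIG-I, read 0.76 in Satb1-null and 1.94 in wild type LMPP (-1.18), and -0.64 by its second probe. Dhx58, a regulator of RIG-I-like sensors, read 0.02 in Satb1-null and 1.17 in wild type LMPP (-1.16). Both sensor genes were lower, as the effector genes were, by a little over 2-fold at their brightest probes.

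Among the guanylate-binding GTPases, Gbp3 read -1.01 in Satb1-null and 0.41 in wild type LMPP (-1.42). Gbp5 was not well above background in Satb1-null LMPP and read -1.26 in wild type LMPP, a difference of at least -2.50. Usp18, which removes the ubiquitin-like ISG15 and damps interferon signalling, differed by -1.63, and Ifi44 by -1.55. Usp18 and Ifi44 were dim on both arrays, with levels under 0.

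Below the threshold, the bright members were lower by smaller amounts. Ifitm3, which blocks virus entry, was the brightest of the list at 6.52 in Satb1-null and 7.24 in wild type LMPP (-0.72). Isg15 read 1.74 in Satb1-null and 2.54 in wild type LMPP (-0.81) and -1.29 by its second probe. Rtp4, Samd9l and Irgm1 differed by -0.96, -0.97 and -0.99, and Irgm1's second probe gave -0.14. Xaf1 differed by -0.77, but its second probe gave 0.80. Near 0 lay the immunoproteasome subunits Psmb8 (-0.20) and Psmb9 (-0.17), Ifitm1 (-0.03) and the transcription factor subunit Irf9 (-0.10). The 5 members above 0 were Shfl (0.03), Stat2 (0.18), Parp14 (0.21), Tap1 (0.44) and Adar (0.53).

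**Figure D3:**
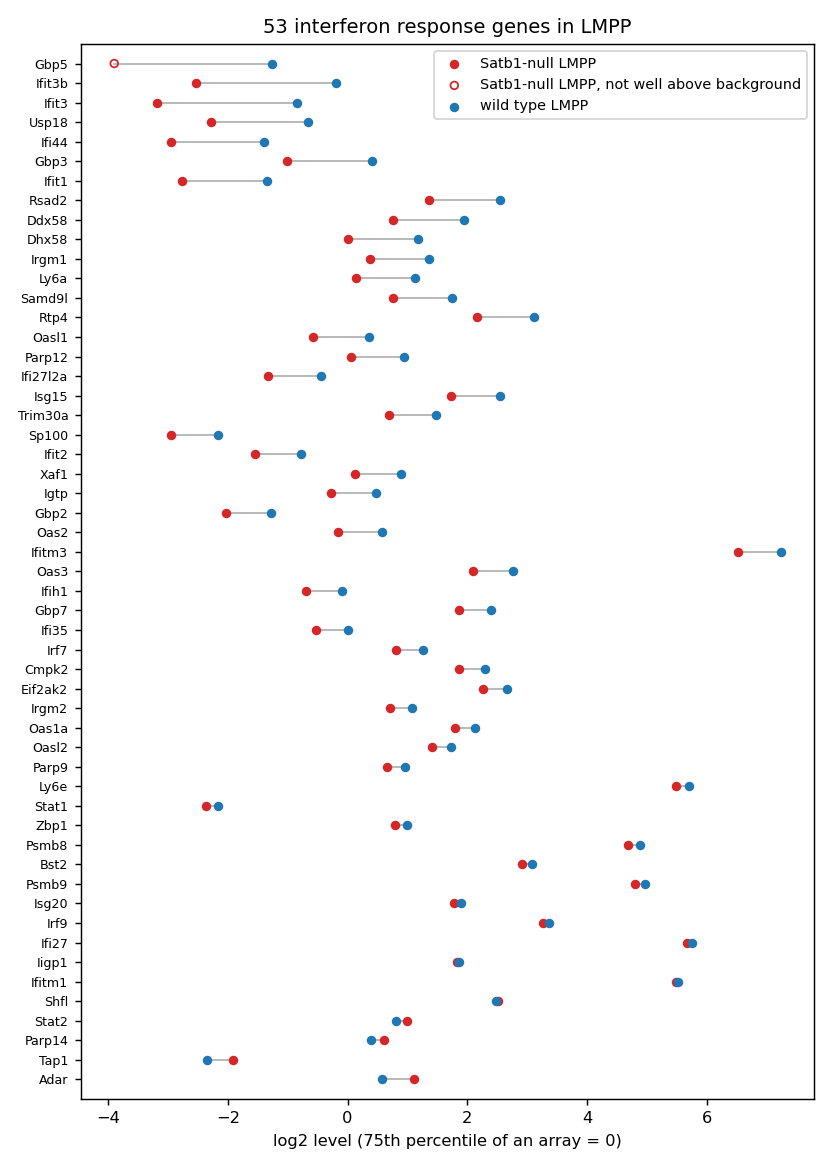
Levels of the 53 interferon response genes compared (log2, 75th percentile of an array set to 0) in Satb1-null LMPP (red) and wild type LMPP (blue), 1 array each, ordered by difference; an open point was not well above background. The red point lies left of the blue one for 48 genes, and Ifitm3 is the brightest.

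The receptors and signalling genes upstream of this response differed less. Of 23 members compared, 2 were higher and 1 lower, with a median of -0.13. The receptor chains Ifnar1 (-0.02), Ifnar2 (-0.23), Ifngr1 (0.34) and Ifngr2 (0.04) lay within 1.5-fold. The kinase gene Tyk2 read -2.92 in Satb1-null and -1.74 in wild type LMPP (-1.18), while Jak1 (-0.19) and Jak2 (0.00) were near 0. Both members past 2-fold in the other direction encode feedback inhibitors of cytokine signalling and were dim: Socs1 read -2.46 in Satb1-null and -3.6 in wild type LMPP (1.14), and Socs3 read -0.85 in Satb1-null and -2.50 in wild type LMPP (1.65). Sting1, an adaptor for DNA sensing, was bright at 6.25 in Satb1-null and 6.69 in wild type LMPP (-0.44).

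Promoters of 5 of the lower interferon genes are shown because they carry the element through which interferon-activated factors are known to act. Not all lower members carried it. The core of that element was searched as GAAANNGAAA, with its opposite strand TTTCNNTTTC, from 250 bases before to 50 after the gene start in RefSeq promoters of build GRCm38.p6. It was present in at least 1 promoter of 3.99% of 27025 genes and of 21 of 39 interferon members with a promoter (53.8%). The list was chosen as interferon response genes, so its share is no result of these arrays. Of the 8 such members past 2-fold it was present in 7, all but Ifi44 (-1.55), and of the 31 not past 2-fold in 14. AGATAA, a motif bound by GATA factors, was present in 6 of the 39. The core is in capitals in the sequences that follow, each read 5′ to 3′ on the gene's strand. They lie at chr3:142496739-142496808 (+, Gbp5), chr19:34583343-34583412 (+, Ifit3), chr3:142559969-142560038 (+, Gbp3), chr19:34640755-34640824 (+, Ifit1) and chr12:26456533-26456602 (-, Rsad2).
Gbp5: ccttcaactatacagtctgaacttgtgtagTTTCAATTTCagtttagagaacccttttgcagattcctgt
Ifit3: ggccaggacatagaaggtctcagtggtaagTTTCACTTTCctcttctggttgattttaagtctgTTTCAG
Gbp3: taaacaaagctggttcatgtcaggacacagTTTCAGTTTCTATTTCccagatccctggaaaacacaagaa
Ifit1: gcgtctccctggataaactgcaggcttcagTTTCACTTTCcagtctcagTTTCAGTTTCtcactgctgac
Rsad2: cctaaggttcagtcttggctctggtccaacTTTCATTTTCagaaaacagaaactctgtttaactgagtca
Every core in these 5 windows was read on the opposite strand. Gbp3 held 2 overlapping cores and Ifit1 2 separate ones, and the last 6 bases of the Ifit3 window begin a second core. The window of Ifit3b, at chr19:34607739-34607808 (+), has the same letters as that of Ifit3. Ifit3 and Ifit3b differed by -2.34 each between the LMPP arrays, Gbp3 and Ifit1 by -1.42 each, and Rsad2 by -1.19. Genes with the core also lay near or above 0, among them Bst2 (-0.18) and Stat2 (0.18).

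Globin and red cell membrane genes were the list furthest from 0, and they were higher in Satb1-null LMPP. At the 2-fold threshold, 12 of its 20 compared members were higher and 0 lower, and the median was 1.63. The list's summed linear level was 227 in Satb1-null and 109 in wild type LMPP. These genes make the haemoglobin, the membrane skeleton and the surface antigens of red cells, and the gate excluded lineage-positive cells.

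The alpha globin gene Hba-a1 read 6.23 in Satb1-null and 3.83 in wild type LMPP (2.40), and its near-identical copy Hba-a2 read 5.15 in Satb1-null and 2.64 in wild type LMPP (2.52). Slc4a1, the anion exchanger of the red cell membrane, read 3.98 in Satb1-null and 1.42 in wild type LMPP (2.56). Of the adult beta globin genes, Hbb-bs read 2.33 in Satb1-null and 0.27 in wild type LMPP (2.06). The other adult beta globin entries moved much less: Hbb-bt read 5.45 in Satb1-null and 5.09 in wild type LMPP (0.36), and Hbb-b2 read 0.89 in Satb1-null and 0.42 in wild type LMPP (0.46). These genes are close copies of each other, and their probes may cross-hybridise.

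Other membrane genes past 2-fold were Aqp1, a water channel (2.77 in Satb1-null and 0.89 in wild type LMPP, 1.89), and Ank1, ankyrin (0.46 in Satb1-null and -0.94 in wild type LMPP, 1.40). The blood group genes Rhd and Icam4 differed by 1.89 and 1.87. Kel and Rhag were not well above background in wild type LMPP and differed by at least 2.69 and at least 2.25. The list was not uniform, since Car1, a carbonic anhydrase, read -2.0 in Satb1-null and -1.05 in wild type LMPP (-0.95), and Car2 (-0.42), Epb41 (-0.36) and Ermap (-0.17) also lay below 0. Ermap's other probes gave 2.44 and 1.17. Epb42, Sptb and the embryonic globin genes Hbb-y, Hbb-bh1 and Hba-x were not well above background on either LMPP array. Each of the 12 members past 2-fold rested on 1 probe well above background, and with 1-probe genes left out the list median was -0.17, which is Ermap's value by its brightest probe.

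The enzymes of haem synthesis and the erythroid regulators did not move with the globins. Haem and mitochondrial iron genes had 1 of 13 members higher, 0 lower, and a median of 0.14. Fech, which inserts iron into haem, read 1.20 in Satb1-null and 0.38 in wild type LMPP (0.83). Erythroid and megakaryocyte transcription factors had 1 of 13 higher, 0 lower, and a median of -0.06. The 1 was Klf1, the master regulator of adult globin genes, which was not well above background in wild type LMPP and read -2.65 in Satb1-null LMPP (at least 1.03). Tal1 (0.14), Nfe2 (-0.06) and Ldb1 (-0.08) lay near 0. In a bulk sample, fewer cells of a type and less RNA per cell cannot be told apart.

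AGATAA occurred in at least 1 promoter of 12.7% of genes and of 5 of 14 compared globin and red cell membrane members with a promoter (35.7%). The interferon core occurred in 0 of these 14. The windows of 4 members past 2-fold are shown to place the motif, in capitals, beside their differences, at chr6:41704346-41704411 (-, Kel), chr7:103828103-103828168 (-, Hbb-bs), chr4:134864463-134864528 (+, Rhd) and chr9:21029359-21029424 (+, Icam4) of GRCm38.p6, also from RefSeq.
Kel: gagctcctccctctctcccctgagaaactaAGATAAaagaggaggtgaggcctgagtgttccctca
Hbb-bs: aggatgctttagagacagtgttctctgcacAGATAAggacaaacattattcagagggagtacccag
Rhd: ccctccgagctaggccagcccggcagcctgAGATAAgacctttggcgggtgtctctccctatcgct
Icam4: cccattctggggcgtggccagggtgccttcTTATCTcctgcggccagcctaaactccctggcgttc
In Icam4 the motif was read on the opposite strand, as TTATCT. The motif started 56 bases before the gene start in Kel, 43 in Rhd and Icam4 and 210 in Hbb-bs.

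Genes of platelets and their precursors were also higher in Satb1-null LMPP. Past 2-fold, 8 of 20 were higher and 0 lower, around a median of 0.38. Pf4, a platelet chemokine, read 3.98 in Satb1-null and 2.42 in wild type LMPP (1.56). The integrin chain Itga2b (CD41) read -0.48 in Satb1-null and -2.81 in wild type LMPP (2.33), and Vwf, von Willebrand factor, read 0.46 in Satb1-null and -2.24 in wild type LMPP (2.70). Clec1b, a platelet receptor, was higher by all 3 of its probes, at 1.47, at least 1.77 and 1.94. Itgb3, the partner chain of Itga2b, was higher by its brighter probe (1.16) and not by the other (0.10). Cd9 (0.00), Gp1bb (0.01) and F2r (0.06) lay near 0, and Plek (0.48) and Thbs1 (0.37) lay between. In all, 19 of the 20 members lay above 0.

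Neutrophil granule genes were also higher in Satb1-null LMPP, with 5 of 16 members at least 2-fold higher, 0 lower and a median of 0.57. The serine protease gene Elane read 2.39 in Satb1-null and 0.96 in wild type LMPP (1.43). Ms4a3, a marker of granulocyte and monocyte progenitors, read 1.78 in Satb1-null and 0.13 in wild type LMPP (1.65). S100a8 read 4.14 in Satb1-null and 3.0 in wild type LMPP (1.14), with its partner S100a9 at 0.63. Mpo, myeloperoxidase, was the brightest member at 7.31 in Satb1-null and 7.26 in wild type LMPP (0.05). Myeloid transcription factors and colony-stimulating factor receptors had 0 of 16 members past 2-fold in either direction, with Spi1 at -0.19, Cebpa at -0.19 and Csf3r at -0.01.

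Mast cell, basophil and eosinophil genes had 5 of 12 members higher, 0 lower and a median of 0.68. Prg2, the eosinophil major basic protein, was the brightest at 3.36 in Satb1-null and 1.88 in wild type LMPP (1.48). Epx, eosinophil peroxidase, read 0.07 in Satb1-null and -2.35 in wild type LMPP (2.42). The other members past 2-fold were dim: Il1rl1 (1.83), Prss34 (at least 1.56) and Cpa3 (at least 1.19). The 2 members below 0 were Tpsb2 (-0.59) and Gata2 (-0.24). Fcer1a, Ms4a2, Cma1 and Mcpt4 were not well above background on either array.

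Fetal liver macrophage genes had 3 of 10 members higher, 0 lower and a median of 0.74, but 5 of the 10 were bounds and the median of the 5 measured members was 0.41. The scavenger receptor gene Marco read -0.16 in Satb1-null and -2.80 in wild type LMPP (2.65). Vcam1 was higher by at least 2.39 by its brighter probe and by 0.89 by the other. Cd5l was higher by at least 2.02. Of the complement genes, C1qb was dim on both arrays and differed by 0.12, and C1qc differed by at least 0.82. C1qa and the macrophage genes Mrc1, Mertk and Timd4 were not well above background on either LMPP array. Adgre1, which encodes F4/80, read -2.20 in Satb1-null and -3.13 in wild type LMPP (0.93). The 2 members below 0 were Axl (-0.11) and Spic (-0.05). The list's summed linear level was 3.65 in Satb1-null and 1.98 in wild type LMPP.

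B lineage genes moved in both directions: 7 of 14 members were higher, 1 was lower, and the median was 0.96. Over the 8 members measured on both arrays the median was 0.38, the other 6 values being bounds. The transcriptional coactivator gene Pou2af1 read -0.01 in Satb1-null LMPP and was not well above background in wild type LMPP (at least 4.03). The surrogate light chain gene Vpreb1 read -0.73 in Satb1-null and -3.07 in wild type LMPP (2.34), and its partner Igll1 differed by at least 2.67. Pax5, the B lineage commitment factor, read -1.72 in Satb1-null and -2.78 in wild type LMPP (1.06), and Cd79a differed by 1.42. All of these were dim, with levels under 0 on both arrays. The brighter Cd79b (-0.37), Cd22 (-0.20) and Cd24a (0.50) were not past 2-fold. Bank1, a scaffold protein of B cell receptor signalling, went the other way by both of its probes (-2.12 and -2.18).

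Markers of cells outside the gate were also read on these arrays. Hepatocyte genes had 6 of 16 members compared in LMPP, with summed linear levels of 2.08 in Satb1-null and 2.58 in wild type LMPP. Endothelial and stromal genes had summed levels of 8.12 in Satb1-null and 7.44 in wild type LMPP. The part of mature red cells, platelets or granulocytes carried through the sort in the differences of the last lists was not tested.

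**Figure D4:**
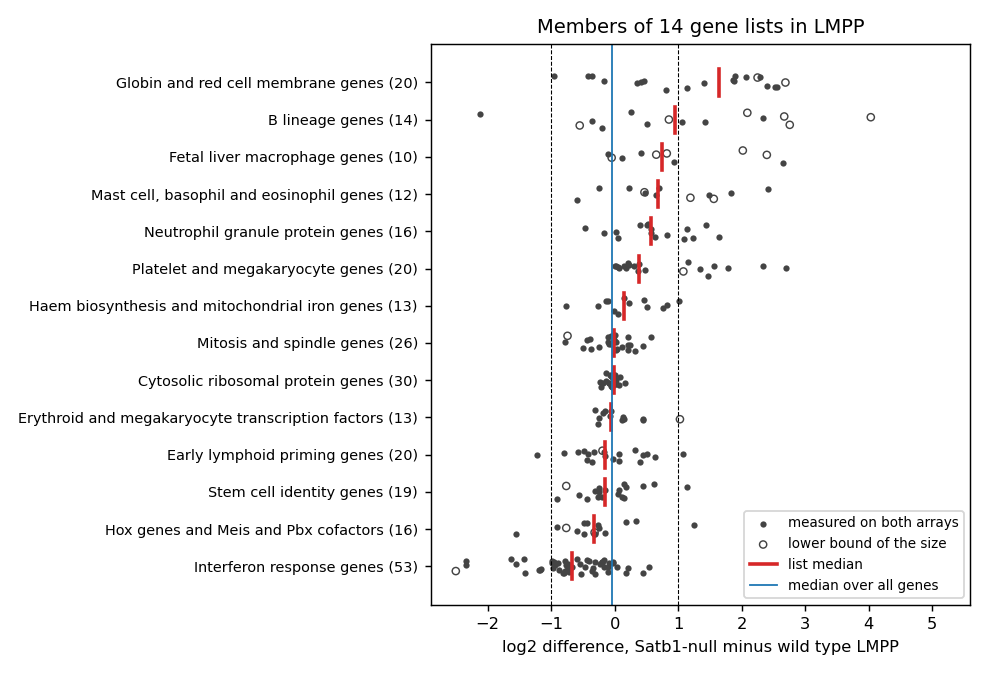
Differences between Satb1-null and wild type LMPP (horizontal axis, log2) for the members of 14 gene lists, with the number compared in brackets. Filled points were measured on both arrays, open points are lower bounds of the size, red bars are list medians, the blue line is the median over all genes and dashed lines mark 2-fold; the red cell list lies furthest right (median 1.63) and the interferon list furthest left (median -0.67).

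Among the 12 bright genes with the highest differences, 5 belonged to the red cell list. The highest with 1 probe and no place in a list was Fkbp3, a nuclear immunophilin, at 4.92 in Satb1-null and 2.17 in wild type LMPP, 6.74-fold higher. It differed by 0.16 in HSC and 0.09 in CLP. Hspa1a, the inducible heat shock protein 70, read 1.56 in Satb1-null and -0.33 in wild type LMPP (1.88), and it was also higher in Satb1-null HSC (2.58) and Satb1-null CLP (1.61). The other heat shock chaperones compared were not past 2-fold, the nearest being the co-chaperone Bag3 (0.80). Necap2, an endocytosis adaptor, differed by 1.87.

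The remaining 4 of the 12 had a probe that gave a difference near 0. By its brighter probe Tmem150b read 1.54 in Satb1-null and -1.36 in wild type LMPP, and its other probe gave a difference of 0.20. Mtmr14 differed by 2.44 and 0.20, and Iqcc by 2.14 and 0.12. Of the 3 probes of Ccl27a, 2 gave 1.79 and 1.71 and the third gave -0.01. Outside the naming rule, and chosen after their values were seen, the metallothionein genes were bright and higher: Mt1 read 2.23 in Satb1-null and 0.46 in wild type LMPP (1.77), and Mt2 read 4.25 in Satb1-null and 2.82 in wild type LMPP (1.44).

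The 12 bright genes with the lowest differences belonged to none of the gene lists. Mylip, a ubiquitin ligase that degrades the low-density lipoprotein receptor, read -0.45 in Satb1-null and 1.33 in wild type LMPP (-1.78), but its other probe gave -0.22. Zfp516, a zinc finger gene, differed by -1.75 and Lamc1, a laminin chain, by -1.60, each with 1 probe. Gkap1 read -0.65 in Satb1-null and 0.87 in wild type LMPP and was lower by both probes (-1.52 and -1.12). Zyg11b differed by -1.62 by its brighter probe and by 0.71 in the opposite direction by the other, and the 3 probes of Icmt ran from -1.38 to 0.68. Jup (plakoglobin, -1.42), Adgrg7 (-1.41), Arl3 (-1.37), Gm3285 (-1.43), Zfp456 (-1.32) and Acer3 (-1.32) had 1 probe each.

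The 44 genes that passed 2-fold by every probe were mostly dim. Those furthest above by their smallest probe difference were Spata21 (2.20 and at least 2.0), Inka2 (at least 1.87 and at least 2.10), Dnah8, an axonemal dynein (2.38 and at least 1.83), and Ppp1r16b (1.71 and at least 2.18). Slc16a3, a lactate transporter, read 0.76 in Satb1-null and -0.87 in wild type LMPP, and its probes gave 1.63 and 1.84. Abcg4, Gsta3, Gm5129, Shf and Pdia2 completed the 10 highest, with smallest probe differences between 1.56 and 1.65, some of them bounds. The lowest were Bank1, Ifit3b and Srgap1, a regulator of the cytoskeleton whose 3 probes gave -1.80, at least -1.62 and at least -1.49. Kcnj13, Morn3, Tff1, Speer1, Tspan17, Slc5a3 and Nupr1l followed, with smallest probe differences between -1.44 and -1.22, most of them bounds. Ifit3b was the only interferon list member and Clec1b the only platelet list member among the 44 genes.

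Some genes were read on 1 array only. The 5 largest such bounds upward were Kcp (at least 4.94), Fcrl1 (at least 4.75), Fbln2 (at least 4.65), Mcm9 (at least 4.54) and Olfr205 (at least 4.53). The 5 largest downward were Pcdh8 (at least -4.17), Trim7 (at least -3.83), Gm4847 (at least -3.51), Rab15 (at least -3.44) and Evi2 (at least -3.21). Each rested on 1 probe.

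Apart from Ly6a, most genes that define the population differed little between the genotypes. Of the LMPP sort and identity genes, 1 of 11 was higher (Vcam1) and 0 lower, with a median of -0.09. The progenitor antigen gene Cd34 read 5.35 in Satb1-null and 5.44 in wild type LMPP (-0.09), and Cd48 read 3.06 in Satb1-null and 3.12 in wild type LMPP (-0.06). Cd27 differed by 0.52. Stem cell identity genes had 1 of 19 higher (Mllt3, 1.13, dim) and 0 lower, with a median of -0.16: Hlf differed by -0.16, Meis1 by 0.17 and Procr by -0.44.

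Early lymphoid priming genes had 1 of 20 members higher, 1 lower, and a median of -0.16. Ets1, a transcription factor of lymphoid cells, read -0.20 in Satb1-null and 1.02 in wild type LMPP (-1.22), and its other probe gave -0.32. Runx3, a transcription factor of cytotoxic T cells, read 2.25 in Satb1-null and 1.18 in wild type LMPP (1.07), with -0.12 by its other probe. The genes of antigen receptor recombination were not past 2-fold: Rag1 differed by -0.36, Rag2 by -0.17 and Dntt by -0.48, with Rag1 and Dntt at levels under -2 on both arrays. The 14 members of the recombination and end joining list had a median of -0.14, with 0 past 2-fold in either direction. The receptor gene Il7r read 0.12 in Satb1-null and -0.51 in wild type LMPP (0.64). The chemokine receptor gene Ccr9 read 1.07 in Satb1-null and 1.87 in wild type LMPP (-0.80).

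Few transcriptional regulators of early blood cells were past 2-fold, as were few of all genes compared (5.78% higher and 3.64% lower). These counts do not set the lists apart from all genes. Hox genes and their Meis and Pbx cofactors had 1 of 16 members higher and 1 lower, with 13 below 0 and a median of -0.33. Hoxa10 read -1.15 in Satb1-null and 0.41 in wild type LMPP (-1.56), Hoxa7 differed by -0.92 and Hoxa9 by -0.48, while Hoxb4 read -1.08 in Satb1-null and -2.33 in wild type LMPP (1.25). Of the Ikaros family, Ikzf1 differed by 0.44, Ikzf2 by -0.01 and Ikzf3 by -0.48, and 0 of 5 were past 2-fold, with a median of 0.37. E proteins and Id inhibitors had 0 of 6 past 2-fold. Chromatin organisers, remodellers and Polycomb genes had 0 of 26 past 2-fold and a median of -0.04.

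Few genes of growth and metabolism were past 2-fold, as were few of all genes compared (5.78% higher and 3.64% lower). Of bright genes, 1.0% were higher and 0.523% lower, so a count of 0 in a bright list is no trait of that list. Ribosomal protein genes had 0 of 30 members past 2-fold, a median of -0.02 and a range from -0.24 to 0.17. Oxidative phosphorylation subunits had 0 of 26 past 2-fold and a range from -0.44 to 0.24. Mitosis and spindle genes had 0 of 26 past 2-fold and a median of -0.01, with Mki67 at -0.44 and Plk1 at 0.58. DNA replication genes had 1 of 25 higher (Orc1, 1.14), 0 lower and a median of 0.10. Glycolysis genes had 2 of 20 higher, Hk3 (1.83) and Slc16a3 (1.63), and 1 lower, Slc16a1 (at least -1.30), around a median of -0.01. Cholesterol synthesis and uptake genes had 0 of 19 past 2-fold.

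The p53, Wnt and Notch lists each held a few members past the threshold, beside 5.78% of all genes compared higher and 3.64% lower. In lists this small, 1 or 2 members past 2-fold lie near those shares, and no list was tested. Targets of p53 had 1 of 17 higher, 0 lower and a median of 0.30. That member was Cdkn1a, the cell cycle inhibitor p21, at 1.82 in Satb1-null and 0.57 in wild type LMPP (1.25), with -0.22 by its dimmer probe. Mdm2 (0.27), Bbc3 (0.36) and Bax (-0.27) were not past 2-fold. Wnt pathway genes had 2 of 17 higher, Fzd5 (1.81) and Wnt5b (1.37), and 2 lower, Fzd3 (at least -1.32) and Lrp6 (-1.0). Notch pathway and early T genes had 3 of 18 higher and 0 lower: the ligand gene Jag2 (1.81), the regulator Dtx1 (at least 1.79) and the target Hey1 (1.63), while the targets Hes1 and Nrarp read 0.23 and -0.10 and the receptor genes Notch1 and Notch2 read -0.45 and -0.68.

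Cytokine receptors of progenitors had 2 of 28 higher, Il1rl1 (1.83) and Il27ra (1.79), and 1 lower, Lifr (at least -1.54). Chemokine receptor and homing genes had 0 of 12 higher and 2 lower, among them the dim Ccr2 (-1.30), while Cxcr4, which holds progenitors in their niche, read 5.52 in Satb1-null and 5.24 in wild type LMPP (0.28). ATF4 and amino acid response genes had 0 of 18 higher and 2 lower, Chac1 (-1.24) and Trib3 (-1.0), with Atf4 itself at 0.00. Immediate early genes had 0 of 21 past 2-fold in either direction, the ends being Fos (-0.62) and Atf3 (0.81).

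The 10 nearest genes compared in LMPP on each side of Satb1 on chromosome 17 were read as a group because Satb1 organises chromatin over long distances. Genes that were not compared were skipped, so other genes may lie between these. Of these 20, 5 were at least 2-fold higher and 0 lower, with a median of 0.46, beside 5.78% higher, 3.64% lower and a median of -0.04 over all genes. All 5 had levels under 0 in wild type LMPP, the range in which most genes past 2-fold lay. On the far side of Tbc1d5, Tspo2, which encodes an erythroid cholesterol-binding protein, read 0.39 in Satb1-null and -1.95 in wild type LMPP (2.34), Kif6 differed by 1.92 and the platelet gene Treml1 by 1.35. On the other side, Sult1c2 and Pot1b were not well above background in wild type LMPP and differed by at least 2.42 and at least 1.91. The nearest compared gene on each side, Tbc1d5 (-0.11) and Rab5a (-0.47), was not past 2-fold. Of the 5 higher genes, Tspo2 was also past 2-fold in HSC (1.52; 0.30 in CLP), while Kif6 read -0.45 in HSC and -0.47 in CLP, Treml1 -0.07 in HSC and -0.13 in CLP, and Sult1c2 -0.59 in HSC.

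The same genes were read in the other populations, each as its own pair of arrays. The interferon list had medians of -0.19 in HSC and -0.06 in CLP, with 35 of 54 and 28 of 54 members below 0, as were 40.0% and 46.9% of all genes there. Ifit3b was past 2-fold in the same direction in every pair: -1.67 in HSC, -2.34 in LMPP and -1.45 in CLP. Ifitm3, at -0.72 in LMPP, read 0.05 in HSC and 0.01 in CLP, and Rsad2 read -0.40 in HSC and -0.33 in CLP. Ifit3, at -2.34 in LMPP, went the other way in HSC (1.05) and CLP (0.95).

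The red cell list had medians of 0.60 in HSC and 0.04 in CLP. Its summed linear level was far higher in CLP, at 1248 in Satb1-null and 1206 in wild type CLP, beside 227 and 109 in LMPP. In HSC it was 169 in Satb1-null and 116 in wild type. Hba-a1 was higher by 1.63 in Satb1-null HSC and read 0.04 in CLP, and Slc4a1 read 1.03 in HSC and 0.20 in CLP. The neutrophil granule list had medians of 0.50 in HSC and -0.10 in CLP, and the B lineage list 0.99 in HSC and 0.66 in CLP. The summed linear level of the neutrophil granule list was 1876 in Satb1-null and 2060 in wild type CLP, beside 406 and 308 in LMPP. Of the 71 bright genes higher in Satb1-null LMPP, 16 were at least 2-fold higher and 2 lower in HSC, and 11 higher and 7 lower in CLP. Of the 37 bright genes lower in Satb1-null LMPP, 2 were higher and 3 lower in HSC, and 10 higher and 5 lower in CLP. Over all genes bright in LMPP, 2.76% were higher and 1.03% lower in HSC, and 6.89% higher and 3.35% lower in CLP. A difference between populations could not be tested, since a fit with genotype, population and their interaction over 6 arrays leaves no residual degrees of freedom.

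**Figure D5:**
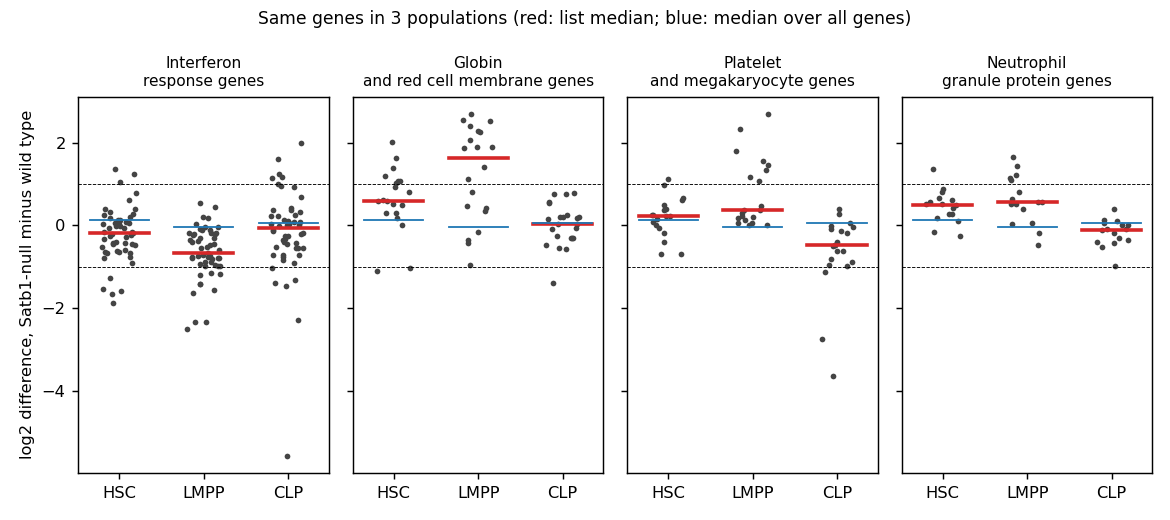
Differences between Satb1-null and wild type arrays (vertical axis, log2) in HSC, LMPP and CLP for members of 4 gene lists, 1 point per gene and 1 array per genotype in each population. Red bars are list medians, blue bars medians over all genes and dashed lines 2-fold; the interferon median is lowest in LMPP (-0.67) and the red cell median highest in LMPP (1.63).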

How the data were processed

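Per the labels' protocols, 6.1 ng of total RNA per sample was amplified with the Ovation Pico WTA system and labelled with Cy3 for 1-colour arrays. The deposited spot intensity values came from Agilent Feature Extraction (10.10, per the submitters' processing notes), already background-corrected and not normalized between arrays. The authors' own processed intensity table held the same signals times 1 constant per array. Here log2 signals were set relative to the 75th percentile of all spots that were not controls, spots flagged as outliers were left out, and repeated spots were averaged. Of 55681 probes, 27235 were named through RefSeq transcript accessions (20660 genes), and the brightest named probe stood for a gene. Bounds used the higher of the dim probe's own level and the lowest level well above background, which was -3.76 in Satb1-null and -4.04 in wild type LMPP. A gene seen on 1 array only was compared if its level there lay above that bound. Genes seen only in wild type LMPP at a level under -3.76 were therefore not compared. No gene seen only in Satb1-null LMPP was left out this way. Calculations used Python 3.11.15, R 4.3.3 and limma 3.58.1, and were tested on simulated data. Genes were named by rule: the target and sort markers, the 12 highest and 12 lowest bright genes, the 10 highest and 10 lowest supported by every probe, 5 bounds each way, up to 6 list members past 2-fold each way and the 3 brightest others, and any member of a list whose median lay 0.3 or more from that of all genes; single genes needed for a contrast were added after their values were seen. The members and the 49 lists were chosen with earlier results of these data known. The planned normexp setting needed mean signals; median signals were used, a choice made after seeing the data. A few list members are not reported here.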

Additional observations from a re-analysis of the deposited data

Results flagged for a closer look

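Some genes were past 2-fold in opposite directions in 2 populations, and none of these differences was tested, since each rests on single arrays. Mylip differed by -1.78 between Satb1-null and wild type LMPP and by 1.57 in HSC, and its other LMPP probe gave -0.22. Icmt differed by -1.38 in LMPP and by 1.12 in CLP, and its LMPP probes disagreed. Arl3 differed by -1.37 in LMPP and by 1.75 in CLP. The Wnt co-receptor gene Lrp6 differed by -1.0 in LMPP and by 2.16 in CLP, and its other LMPP probe gave 0.31. The ligand gene Wnt5b differed by 1.37 in LMPP and -3.64 in HSC. Their causes were not tested.

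List medians also lay on opposite sides of the median over all genes. The fetal liver macrophage list had a median of 0.74 in LMPP and -0.17 in HSC. The platelet and megakaryocyte list had a median of 0.38 in LMPP and -0.48 in CLP.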

How the results depend on the processing

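No paired analysis was possible because each group holds 1 array. The list medians of the interferon genes stayed between -0.69 and -0.43 under every alternative run, and the counts of higher and lower genes were 742 and 467 as reported. The counts depended on the signal used and the detection filter. The normexp setting on median signals changes the spot statistic and the background correction. It also adds an offset of 50 to every signal, which draws the differences of dim genes towards 0. With it they were 170 and 51 (76.9% higher), and 1 gene was higher and 0 were lower by every probe. In that setting 7 globin and red cell and 5 interferon members were past 2-fold. The parts of these 3 changes were not told apart. Restricted to genes well above background on both arrays they were 399 and 278, with 13 and 8 by every probe. With no detection filter they were 1369 and 1220 (52.9% higher), with 51 and 42 by every probe. At 1.5-fold they were 1544 and 1372 (52.9% higher), with 90 and 74 by every probe and 28 interferon members lower; at 3-fold they were 355 and 114 (75.7% higher), with 7 and 1 by every probe and 4 interferon members lower. The share of called genes that were higher, 61.4%, was 64.7% with the percentile over probes well above background on both arrays and 66.4% with the authors' processed values. With genes of 1 probe left out, 214 were higher and 142 lower, 1 globin and red cell member was higher and 2 interferon members were lower, and the globin and red cell median turned to -0.17, the value of 1 gene, Ermap, by its brightest probe, since most of that list has 1 probe. The Wnt list median, 0.32, turned to -0.027 with the mean over probes. Of 141 named genes past 2-fold, 61 stayed past it in the same direction under every alternative that measured them. Median centring and quantile normalization moved no count by over 1.5 times. The number of arrays, and for dim genes the signal over background, limit what can be said.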
